A study of Mus musculus with 6 samples.

Results

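The genes described here are the molecular chaperones of mouse macrophages and the proteins that fold and watch over secreted proteins in the endoplasmic reticulum (ER). They were chosen by gene symbol: all Dnaja, Dnajb, Dnajc, Hsp, Cct and Pdia genes that the array annotation names, with Tcp1, Calr, Canx, Xbp1, Ern1, Atf6, Eif2ak3 and Herpud1. This gave 95 genes of the 19938 that could be tested. The rule reads symbols only, not signals. The symbol rule also took in Hspg2, the matrix proteoglycan perlecan, and Hspbap1, neither of which is a chaperone. Hspa1b lies only on a probe set shared with Hspa1a, and Hsp90ab1 was not analysed here. RNA came from bone marrow of C57BL/6 mice, grown for 7 days with CSF1 (M-CSF), giving M(CSF1) cells, or with CSF2 (GM-CSF), giving M(CSF2) cells. Cells of both kinds were sorted by a marker that the labels do not state, and each group had 3 Affymetrix Mouse Gene 1.0 ST arrays called biological replicates. The labels do not say whether the replicates came from separate mice or from pools, so each p-value sets the groups against a spread that may be technical.

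Chaperones bind unfolded chains and let them fold without clumping. In the cytosol, HSP70 proteins take up chains that DNAJ partners deliver, HSP110 proteins and other exchange factors release them, and HSP90 and the barrel-shaped CCT complex finish selected clients such as kinases, actin and tubulin. In the ER, BiP (Hspa5), GRP94 (Hsp90b1), the lectins calreticulin and calnexin and the protein disulphide isomerases do this work. The sensors ATF6, IRE1 (Ern1) and PERK (Eif2ak3) start the unfolded protein response when folding lags, and IRE1 splices the Xbp1 message into its active form. Heat shock factors play the matching part for the cytosol.

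In M(CSF2) cells most CCT genes, the mitochondrial chaperonin, the inducible HSP90 gene Hsp90aa1 and the constitutive HSP70 gene Hspa8 were lower, while the exchange factors Hsph1 and Hspa4l, the isomerase Pdia4 and Xbp1 were higher. The sensor gene Atf6 fell most of all, by 1.70 on the log2 scale. A gene was called where its limma adjusted p was under 0.05, adjusted by Benjamini-Hochberg over all genes tested. Of the 95 genes, 12 were called higher and 26 lower in M(CSF2), and 57 were not called. Over all genes tested, 27.5% were called, 11.9% higher and 15.6% lower, so the share of higher calls among the chaperones (12.6%) was close to the background and that of lower calls (27.4%) was above it. The median difference was -0.03 over the 95 genes and 0.04 over all genes. Called differences of at least 2-fold were found for 5 of the 95 genes, against 7.99% of all genes.

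Groups did not overlap for 52 of the 95 genes, with 18 higher and 34 lower in M(CSF2). Over all genes that held for 38.9%, 19.1% higher and 19.8% lower. The mean over the 6 arrays lay above 3.36, the 95th percentile of 1027 olfactory receptor genes and here the level taken for background, for 79 of the 95 genes. The 16 genes under it were Cct6b, Cct8l1, Dnajb3, Dnajb7, Dnajb13, Dnajc5b, Dnajc5g, Dnajc6, Dnajc22, Dnajc27, Dnajc28, Hspa1l, Hspa12a, Hspb3, Hspb11 and Pdia2, and none of them was called. Dim genes were thus fewer among the chaperones than among all genes, of which 13310 of 19938 lay above this level. Among genes above it, 32.9% of the chaperones were called lower, against 22.8% of all genes. Higher calls made up 15.2% of those chaperones, against 17.1% of all genes above it. In bulk RNA, fewer cells of a type and less RNA per cell cannot be told apart. Without M(CSF1) replicate 2 the higher calls went from 12 to 7 and without M(CSF2) replicate 1 also to 7, and without M(CSF1) replicate 1 to 8. Over the 6 leave-one-out fits, each without 1 array, the lower calls ranged from 20 to 29.

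**Figure D1:**
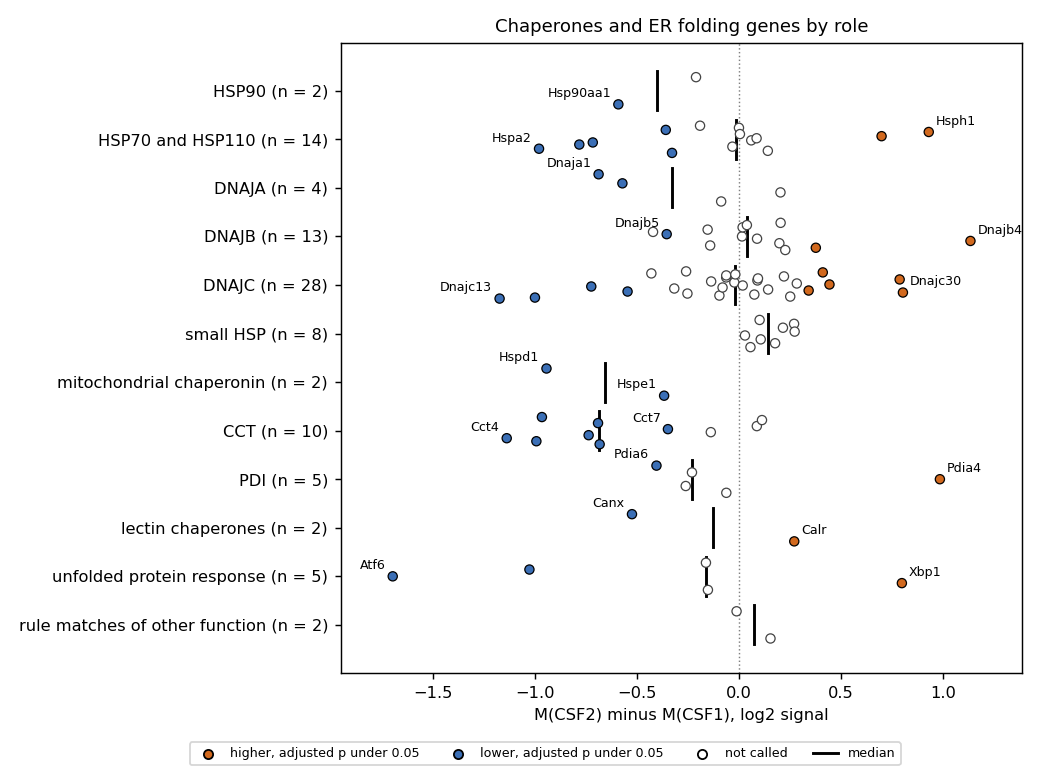
Difference between M(CSF2) and M(CSF1) in log2 signal (x axis) for each of the 95 genes, by role (y axis), with filled points for called genes and a black bar for the median of each role. CCT genes lie around a median of -0.69, whereas DNAJC genes spread to both sides, from -1.17 to 0.80.

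Arrays of the same group correlated at 0.995 to 0.997 over all probe sets and arrays of different groups at 0.954 to 0.959. All 8 macrophage markers checked were above the olfactory receptor level, at an array mean of 10.09 to 10.20 in M(CSF1) and 10.06 to 10.15 in M(CSF2), but single markers moved both ways. Cd14 (1.71), Cd68 (0.89) and Csf1r (0.60) were higher in M(CSF2) and Fcgr1 (-1.23), Adgre1 (-1.18) and Lyz2 (-0.48) lower, in log2 differences. Of the markers for other cells, 2 of 7 dendritic cell markers, Itgax (5.05) and Ccr7 (3.93), were higher in M(CSF2), with array means of 4.19 to 4.22 in M(CSF1) and 5.48 to 5.56 in M(CSF2), and Xcr1 lay under the level in both. Mast cell and basophil markers were higher in 4 of 8 cases (array means of 3.10 to 3.32 against 4.30 to 4.38): Hdc by 4.43, Gata2 by 2.52, Kit by 1.32 and Mcpt8 by 0.36. Of the 8, 5 were at or below the level on all arrays of each group, Mcpt8, Cpa3 and Mcpt4 among them. Neutrophil markers were higher in 2 of 8 cases (3.70 to 3.86 against 4.03 to 4.29), S100a8 by 2.37 and Ltf, at background, by 0.31. The other 6 were not called, and 2 of the 8 differences were below 0. S100a9 gave -0.34 (limma adjusted p = 0.072), with all M(CSF2) arrays below all M(CSF1) arrays. Of 6 stromal markers Dcn was higher (3.30) and Postn lower (-2.91), with array means of 4.88 to 4.99 and 5.01 to 5.20, and of 7 T and NK cell markers Cd4 was lower (-0.87), with 3.18 to 3.32 and 3.15 to 3.20. None of 3 erythroid markers was called (3.66 to 3.72 and 3.59 to 3.69). Their part in the results was not tested.

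The CCT complex (TRiC) folds actin and tubulin and is built of Tcp1 and its Cct relatives. Of the 8 genes of this group above background, 7 fell in M(CSF2) and Cct3 did not pass the test. Among all genes above background, 22.8% were called lower. Cct4 gave 8.52, 8.44 and 8.42 in the 3 M(CSF1) arrays and 7.19, 7.29 and 7.49 in the M(CSF2) arrays. It fell 2.20-fold (95% interval 1.90 to 2.55, adjusted p = 6.3e-05). Cct5 gave 9.15, 9.04 and 8.97 against 7.98, 8.09 and 8.10, a fall of 0.99 (SE 0.08, adjusted p = 5.6e-05). For both subunits every M(CSF2) array was lower than every M(CSF1) array by a wide margin compared with the spread inside a group.

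Cct6a fell by 0.97 (SE 0.10, adjusted p = 0.00030), from 9.06, 8.97 and 8.92 to 8.12, 7.80 and 8.13. Cct8 read 8.85, 8.70 and 8.59 in M(CSF1) and 7.99, 7.86 and 8.09 in M(CSF2), a fall of 0.74 (SE 0.10, adjusted p = 0.00077). Again neither pair of groups overlapped. Tcp1 fell by 0.69 (SE 0.08, adjusted p = 0.00037), Cct2 by 0.68 (SE 0.07, adjusted p = 0.00029) and Cct7, the smallest of these falls, by 0.35 (SE 0.08, adjusted p = 0.010). Cct3 was at 9.17, 9.15 and 8.99 in M(CSF1) and 9.18, 9.19 and 9.29 in M(CSF2), a difference of 0.11 with a 95% interval of -0.07 to 0.30 (adjusted p = 0.366). Its groups did not overlap, with M(CSF2) the higher one, opposite to its partners. The lower end of that interval lies above the smallest fall of its partners, that of Cct7, although the difference between genes was not tested. The 2 remaining genes of the group, Cct6b (2.68 and 2.54, adjusted p = 0.407) and Cct8l1 (2.87 and 2.96, adjusted p = 0.486), have a testis-restricted or unclear role and lay at background.

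**Figure D2:**
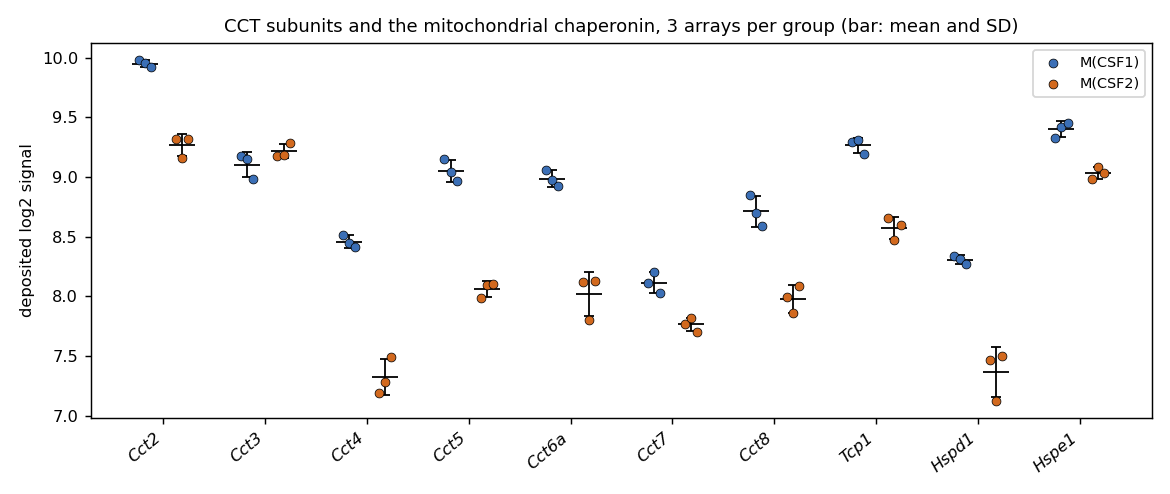
Deposited log2 signal (y axis) of the 8 CCT genes above background and of the mitochondrial chaperonin genes Hspd1 and Hspe1, with 3 points per group and bars for mean and SD. Cct3 is the gene whose group means lie closest (9.10 and 9.22), with the M(CSF2) arrays just above the M(CSF1) arrays, and for the other genes the M(CSF2) arrays are all below. Signals of different genes come from different probes and are not to be compared.

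Prefoldin and phosducin-like proteins hand clients to CCT. Of 10 such genes, 2 fell, 1 rose and 7 were not called (median -0.18). Over all genes 15.6% were called lower and 11.9% higher, so these counts were near the background. Pdcl3 fell by 0.70 (SE 0.09, adjusted p = 0.00065). The prefoldin gene Vbp1 fell by 0.82, with 1 of the 6 fits that left out an array keeping its call (adjusted p = 0.134 without M(CSF1) replicate 2), and its partner Pfdn1 rose by 0.33 with the same count of fits (adjusted p = 0.133 without M(CSF2) replicate 1).

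HSP60 (Hspd1) and its lid HSP10 (Hspe1) form the folding chamber of mitochondria, and both fell. Hspd1 was at 8.34, 8.31 and 8.27 in M(CSF1) and 7.47, 7.13 and 7.50 in M(CSF2), a 1.92-fold difference (95% interval 1.61 to 2.29, adjusted p = 0.00041). Its second probe set gave -1.31. Hspe1 fell by 0.37 (SE 0.07, adjusted p = 0.0057), from 9.33, 9.42 and 9.46 to 8.99, 9.08 and 9.03, and by 0.33 on its other probe set. M(CSF2) replicate 2 was the lowest array for Hspd1 and the highest of its group for Hspe1. Mortalin (Hspa9), the mitochondrial HSP70, fell by 0.33 (SE 0.09, adjusted p = 0.025). Its call is weak: 1 of 6 leave-one-out fits kept it, with adjusted p from 0.0528 without M(CSF1) replicate 3 to 0.102 without M(CSF1) replicate 2, and quantile normalization ended it (adjusted p = 0.061).

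Other mitochondrial folding and protease genes went both ways, 3 of 12 higher (25%), 2 lower (16.7%) and 7 not called. Over all genes the shares were 11.9% higher and 15.6% lower. The protease subunit Clpp rose by 0.95 (SE 0.12, adjusted p = 0.00059) and Grpel1, the exchange factor of mortalin, by 0.49 (SE 0.09, adjusted p = 0.0043). Trap1, the mitochondrial HSP90, fell by 0.43 (SE 0.07, adjusted p = 0.0019). The proteases Lonp1 (0.29) and Yme1l1 (-0.50) were called too, at adjusted p = 0.048 and 0.023, and lost the call without M(CSF1) replicate 1 (adjusted p = 0.124 and 0.0995) and in 4 and 3 further such fits.

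Hsp90aa1, the inducible cytosolic HSP90, fell in M(CSF2) by 0.59 (SE 0.12, adjusted p = 0.0062). Its arrays read 10.17, 10.10 and 10.09 in M(CSF1) and 9.56, 9.29 and 9.74 in M(CSF2), with no overlap, and its 3 probe sets gave -0.59 to -0.56. Of 25 co-chaperones of HSP90 and HSP70, 8 fell (32%), 2 rose (8%) and 15 were not called (median -0.09). Over all genes 15.6% were called lower and 11.9% higher. Ahsa1, which speeds up the HSP90 ATPase, fell 2.38-fold, from 8.79 ± 0.11 to 7.54 ± 0.03 (SD, n = 3 arrays each, limma adjusted p = 1.7e-05). The p23 gene Ptges3 fell by 0.94 (SE 0.10, adjusted p = 0.00023) and the kinase-loading Cdc37 by 0.86 (SE 0.10, adjusted p = 0.00035). St13, which steadies HSP70 on its client, fell by 0.68, a call lost without M(CSF1) replicate 1 (adjusted p = 0.077) or replicate 2 (adjusted p = 0.065). The myosin chaperone Unc45a went the other way, 0.65 higher (SE 0.09, adjusted p = 0.0012), and Fkbp8 was 0.32 higher at adjusted p = 0.046, called in 1 of the 6 leave-one-out fits (0.137 without M(CSF2) replicate 2).

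Of the 14 genes of the HSP70 and HSP110 group, 5 fell (35.7%), 2 rose (14.3%) and 7 were not called. Over all genes 15.6% were called lower and 11.9% higher, so the share of rises was near the background. HSC70 (Hspa8), the constitutive HSP70 of the cytosol, fell by 0.36 (SE 0.07, adjusted p = 0.0046), from 11.58 ± 0.03 to 11.22 ± 0.05 (SD, n = 3 arrays each), and its 3 probe sets gave -0.37 to -0.35. The stress-inducible Hspa1a was at 4.84 and 4.92 with no call (difference 0.09, 95% interval -0.24 to 0.41, adjusted p = 0.709). That value is uncertain because its coding sequence is nearly identical to that of Hspa1b. Hspa2, a relative best known from the testis, fell by 0.98 (SE 0.19, adjusted p = 0.0062) and gave 6.01, 5.49 and 5.22 in M(CSF1) against 4.44, 4.60 and 4.74.

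The HSP110 relatives, which release ADP from HSP70, did not move together. Hspa4 fell from 8.46, 8.33 and 8.38 to 7.72, 7.29 and 7.80, a 1.72-fold difference (95% interval 1.38 to 2.14, adjusted p = 0.0033). Hsph1 rose from 6.82, 6.79 and 6.56 to 7.62, 7.45 and 7.89, by 1.90-fold (95% interval 1.55 to 2.34, adjusted p = 0.0010). Hspa4l also rose, from 5.35, 5.46 and 5.27 to 6.18, 5.79 and 6.20, by 0.70 (SE 0.12, adjusted p = 0.0035). All 3 pairs of groups were free of overlap, and these calls held in each of the 6 leave-one-out fits. Hspbp1, an exchange factor of another family counted in this group by its symbol, gave -0.03 (adjusted p = 0.865).

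**Figure D3:**
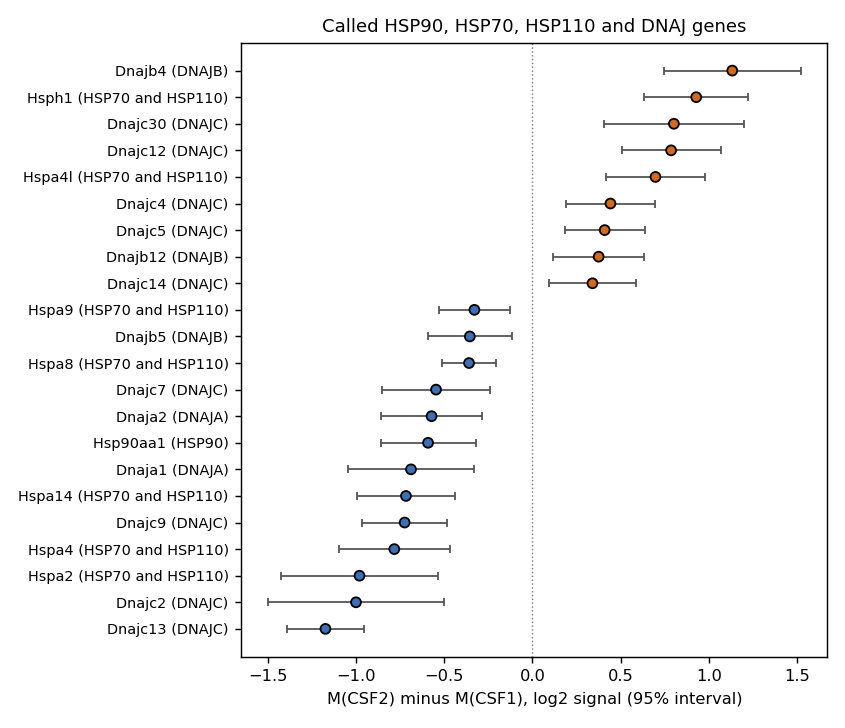
Difference between M(CSF2) and M(CSF1) in log2 signal with its 95% interval (x axis) for every called HSP90, HSP70, HSP110 and DNAJ gene (y axis, role in brackets). Dnajb4 and Hsph1 are the largest rises (1.13 and 0.93), and Dnajc13 is the largest fall (-1.17).

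DNAJ proteins carry a J domain that stirs HSP70 to split ATP, and they decide where and on what it works. Of the 45 DNAJ genes, 7 rose, 7 fell and 31 were not called (median 0.01). The shares, 15.6% each way, were near those over all genes, 11.9% higher and 15.6% lower. Among the class A genes, the general partners of HSC70 fell: Dnaja1 by 0.69 (SE 0.15, adjusted p = 0.012) and Dnaja2 by 0.57 (SE 0.12, adjusted p = 0.0099). Both calls were lost without M(CSF1) replicate 1 (adjusted p = 0.064 and 0.051) and without replicate 2 (adjusted p = 0.051 and 0.055). A second, dimmer probe set of Dnaja1 gave -0.05 (adjusted p = 0.602 over all probe sets). The probe set that names Dnaja1 together with Mir207 gave 0.21 (adjusted p = 0.134 over all probe sets). The fall of Dnaja1 thus rests on 1 probe set. Mitochondrial Dnaja3 (-0.09, adjusted p = 0.451) and Dnaja4 (0.20, adjusted p = 0.318) were not called.

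Dnajb4, a cytosolic class B partner of HSP70, was 4.41, 4.68 and 4.22 in M(CSF1) and 5.72, 5.24 and 5.74 in M(CSF2). At 2.19-fold higher (95% interval 1.67 to 2.87, adjusted p = 0.0015) it was the largest rise among the 95 genes, with no overlap. Its close relatives differed: Dnajb1, the inducible HSP40, gave -0.14 (adjusted p = 0.275) and Dnajb5 fell by 0.35 (adjusted p = 0.037) and was still called in 2 of the 6 leave-one-out fits (adjusted p = 0.141 without M(CSF1) replicate 2). Dnajb12, a J protein of the ER membrane that helps degrade misfolded membrane proteins, rose from 6.95, 6.94 and 6.59 to 7.17, 7.16 and 7.28. This rise of 0.38 (adjusted p = 0.039) was called in 1 of those 6 fits (adjusted p = 0.121 without M(CSF2) replicate 3) and ended after centring on array medians (adjusted p = 0.091).

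Dnajc13 (RME-8), which works on endosomes in receptor recycling, was lower in every M(CSF2) array, at 7.14, 7.07 and 7.30 against 8.46, 8.23 and 8.34. It fell 2.25-fold (95% interval 1.94 to 2.62, adjusted p = 6.1e-05), and all its 15 probe sets were called lower over all probe sets, with differences of -1.57 to -1.17. Dnajc2 and Hspa14 together form the ribosome-associated complex that meets chains as they leave the ribosome, and both fell. Dnajc2 went from 5.96, 5.28 and 5.27 to 4.39, 4.30 and 4.82, by 1.00 (SE 0.21, adjusted p = 0.0097), a call lost without M(CSF2) replicate 1 (adjusted p = 0.060) or 2 (adjusted p = 0.055). Hspa14 fell by 0.72 (SE 0.12, adjusted p = 0.0028) from 6.61, 6.57 and 6.53 to 5.70, 5.74 and 6.13, and kept its call in all 6 leave-one-out fits. Dnajc9, a co-chaperone for histones, fell by 0.72 (SE 0.10, adjusted p = 0.0013), from 6.22, 6.28 and 6.20 to 5.72, 5.45 and 5.35. Dnajc7, which bridges HSP70 and HSP90, fell by 0.55 (adjusted p = 0.016), with adjusted p = 0.067, 0.060 and 0.054 without M(CSF1) replicate 1, M(CSF1) replicate 2 and M(CSF2) replicate 1.

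The 5 rising DNAJC genes serve unlike tasks. Dnajc12, a helper of aromatic amino acid hydroxylases, read 5.29, 5.55 and 5.27 in M(CSF1) and 5.95, 6.22 and 6.31 in M(CSF2), a rise of 0.79 (SE 0.12, adjusted p = 0.0019). Dnajc30, a mitochondrial J protein, rose by 0.80 (SE 0.17, adjusted p = 0.0091) from 6.65, 6.26 and 6.04 to 7.29, 6.89 and 7.18, and lost the call without M(CSF1) replicate 2 (adjusted p = 0.054) or M(CSF2) replicate 1 (adjusted p = 0.056). No M(CSF2) value of either gene fell among the M(CSF1) values. The rises of Dnajc4, Dnajc5 (cysteine string protein, active in exocytosis) and Dnajc14 (an ER membrane protein) were smaller.

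Dnajc4 gave 6.62, 6.75 and 6.43 against 7.08, 7.15 and 6.89, a rise of 0.44 (adjusted p = 0.018) called in 2 of the 6 leave-one-out fits. Dnajc5 gave 7.62, 7.52 and 7.43 against 7.79, 7.91 and 8.10, a rise of 0.41 (adjusted p = 0.016) called in 4 of them. Dnajc14 gave 6.67, 6.59 and 6.36 against 6.81, 6.80 and 7.03, a rise of 0.34 (adjusted p = 0.0496) called in none of them. Their largest adjusted p values in those fits were 0.076 for Dnajc4 without M(CSF2) replicate 1, 0.064 for Dnajc5 without M(CSF1) replicate 2 and 0.145 for Dnajc14 without M(CSF2) replicate 3. The count of rising DNAJC genes was 3 without M(CSF1) replicate 1 and 2 without M(CSF1) replicate 2, M(CSF1) replicate 3 or M(CSF2) replicate 1, and the count of falling ones was 2 without M(CSF2) replicate 1.

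Heat shock factors bind repeats of GAA and TTC in front of many of these genes. A full element of 3 such units, GAANNTTCNNGAA or TTCNNGAANNTTC on either strand, was searched from 250 bases before to 50 bases after each annotated start in the RefSeq promoter sequences of GRCm38.p6, which cover 80 of the 95 genes. It was found for Hspd1, Hspe1, Hsph1 and Dnajb6, 4 of 80 (5.0%), and for 88 of 15614 tested genes (0.564%). The whole windows of Hspd1 and Hsph1 are shown because these genes hold the same element and changed in opposite directions. Each runs 5′ to 3′ as transcribed, with the matches in capitals, Hspd1 from chr1:55087883-55088182 on the minus strand and Hsph1 from chr5:149636266-149636565 on the minus strand.
Hspd1: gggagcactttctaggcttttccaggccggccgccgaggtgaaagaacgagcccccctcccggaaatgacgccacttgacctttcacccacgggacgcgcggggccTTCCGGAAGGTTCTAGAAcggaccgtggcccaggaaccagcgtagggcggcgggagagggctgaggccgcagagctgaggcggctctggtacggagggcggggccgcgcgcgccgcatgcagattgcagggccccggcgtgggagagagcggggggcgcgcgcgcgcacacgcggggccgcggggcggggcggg
Hsph1: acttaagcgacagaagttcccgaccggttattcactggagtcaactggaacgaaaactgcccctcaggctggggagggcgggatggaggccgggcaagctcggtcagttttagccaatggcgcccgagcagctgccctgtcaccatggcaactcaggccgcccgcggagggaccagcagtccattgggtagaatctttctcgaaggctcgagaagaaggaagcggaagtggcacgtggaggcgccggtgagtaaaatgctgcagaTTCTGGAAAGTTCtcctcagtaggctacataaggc

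Hspd1 and Hspe1 are divergent neighbours whose windows overlap, and their matches are the same bases read from the other strand, between 127 and 144 bases before the start of Hspd1 and between 72 and 89 bases before that of Hspe1. The match of Hsph1 lies after this annotated start. Hspd1 and Hspe1 fell and Hsph1 rose, as given above. The single-gene probe set of Dnajb6 gave 0.23 (adjusted p = 0.183) and lay close to background (3.48 in M(CSF1) and 3.70 in M(CSF2)). Brighter probe sets that name Dnajb6 together with Gm4247 gave 0.82 to 0.85, and which of these genes they measure cannot be told. The shorter pairs GAANNTTC and TTCNNGAA, which every full element contains, were found for 20 of 80 genes (25.0%) and 15.4% of tested genes. Of those 20, 2 rose (10%), 6 fell (30%) and 12 were not called, against 11.9% higher and 15.6% lower over all genes. A match describes the letters of the window and is not a measured binding site. Of the heat shock factor genes, Hsf2 fell by 1.00 (SE 0.12, adjusted p = 0.00057) and Hsbp1, which binds HSF1 and restrains it, fell by 1.08 (SE 0.10, adjusted p = 0.00012). Hsf4 and Hsf5 gave 0.02 and 0.08 with no call, and Hsf1 was not analysed here.

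In the ER, the genes that sense or answer unfolded protein moved apart. Atf6, whose protein is cut in the Golgi to release a transcription factor for ER chaperones, gave 8.62, 8.55 and 8.48 in M(CSF1) and 6.71, 6.88 and 6.98 in M(CSF2). It was 3.24-fold lower (95% interval 2.80 to 3.75, adjusted p = 7.8e-06). Xbp1 gave 8.45, 8.41 and 8.47 against 9.10, 9.17 and 9.45, which is 1.74-fold higher (95% interval 1.48 to 2.04, adjusted p = 0.00063). Both differences far exceeded the spread within groups, and both kept their calls in all 6 leave-one-out fits. Of 8 plasma cell and B cell markers, a lineage rich in XBP1, Sdc1 was higher, Cd79b lower and 6 not called, with array means of 4.30 to 4.62 in M(CSF1) and 4.19 to 4.46 in M(CSF2), and Jchain was at background on all arrays. The array does not separate the spliced from the unspliced Xbp1 message.

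Herpud1, a small ER membrane protein of the degradation complex and a usual target of the response, fell from 9.15, 9.04 and 8.99 to 8.06, 8.01 and 8.03, a 2.04-fold difference (95% interval 1.82 to 2.28, adjusted p = 2.8e-05). The other sensor genes were not called. Ern1 gave 6.90, 6.92 and 6.86 against 6.68, 6.70 and 6.83 (difference -0.15, 95% interval -0.32 to 0.01, adjusted p = 0.173), groups that do not overlap, and Eif2ak3 5.78, 5.78 and 5.78 against 5.69, 5.38 and 5.78 (difference -0.16, 95% interval -0.42 to 0.09, adjusted p = 0.337).

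**Figure D4:**
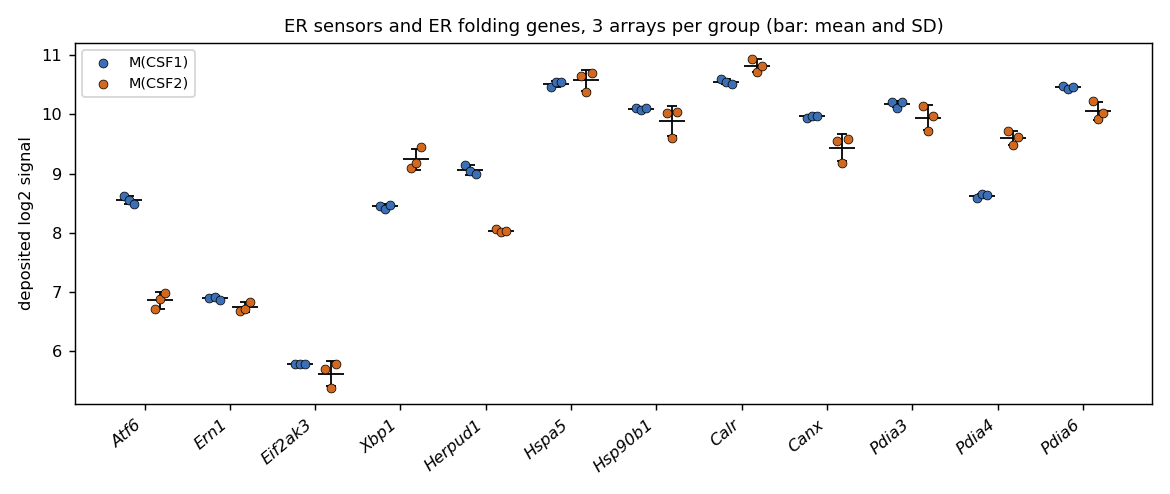
Deposited log2 signal (y axis) of ER sensor genes, their targets and ER folding genes, with 3 points per group and bars for mean and SD. Atf6 and Herpud1 are lower and Xbp1 and Pdia4 higher in all M(CSF2) arrays, and Hspa5 overlaps between groups.

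The 2 most general ER chaperones were not called. BiP (Hspa5) was at 10.46, 10.54 and 10.54 in M(CSF1) and 10.65, 10.37 and 10.70 in M(CSF2), a difference of 0.06 (95% interval -0.17 to 0.29, adjusted p = 0.714). GRP94 (Hsp90b1) gave 10.11, 10.08 and 10.10 against 10.03, 9.60 and 10.03 (-0.21, 95% interval -0.50 to 0.07, adjusted p = 0.266). Of the sugar-binding chaperones, which hold newly made glycoproteins, membrane-bound Canx fell and soluble Calr rose. Canx was at 9.93, 9.98 and 9.98 and then 9.54, 9.19 and 9.59, a fall of 0.52 (SE 0.11, adjusted p = 0.0098) that had adjusted p = 0.0504 without M(CSF1) replicate 2. Calr rose from 10.60, 10.54 and 10.52 to 10.93, 10.72 and 10.82, by 0.27 (SE 0.08, adjusted p = 0.037). The Calr call held in 1 of the 6 leave-one-out fits, with adjusted p from 0.062 without M(CSF1) replicate 1 to 0.112 without M(CSF1) replicate 2, and it ended after centring on array medians (adjusted p = 0.109).

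Protein disulphide isomerases form and shuffle the disulphide bonds of secreted proteins. Pdia4 (ERp72) rose 1.98-fold (95% interval 1.73 to 2.25, adjusted p = 7.1e-05), from 8.58, 8.65 and 8.63 to 9.72, 9.48 and 9.61, while a second probe set of the gene was at background (mean 2.46) and gave 0.12. Pdia6 (P5) fell by 0.40 (SE 0.09, adjusted p = 0.012), from 10.49, 10.44 and 10.46 to 10.23, 9.92 and 10.03. Neither gene's groups overlapped, and both calls held in all 6 leave-one-out fits. Pdia3 (ERp57), the partner of calnexin and calreticulin, gave -0.23 (adjusted p = 0.175), Pdia5 -0.26 (adjusted p = 0.142) and Pdia2, at background, -0.06. P4hb, the founding isomerase of the family, whose symbol lies outside the rule, rose from 10.18, 10.30 and 10.34 to 10.84, 10.78 and 11.13, by 0.64 (SE 0.11, adjusted p = 0.0027), a call kept in all 6 leave-one-out fits.

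Of the DNAJ partners of BiP, none was called. Dnajb11 gave 0.20 (adjusted p = 0.161), Dnajc10 0.09 (adjusted p = 0.653), Dnajc1 0.22 (adjusted p = 0.391), Dnajc3 -0.26 (adjusted p = 0.211) and Dnajb9 -0.42 (95% interval -0.83 to -0.01, adjusted p = 0.126). In Dnajb9 and Dnajc3 all M(CSF2) arrays lay below all M(CSF1) arrays, and M(CSF2) replicate 2 was far the lowest.

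ATF6 and XBP1 act through the ER stress element, a CCAAT box followed at a fixed distance by CCACG. The element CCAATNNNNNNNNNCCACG, searched on either strand in the same windows, was found for 6 of 80 genes (7.5%) and for 21 of 15614 tested genes (0.134%). All of the 6 belong to the ER machinery. Their matches are shown along the strand of the element with the boxes in capitals. They are printed because these genes share the element but were not called alike.
Hspa5, chr2:34772025-34772043 on the plus strand: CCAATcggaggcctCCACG
Hsp90b1, chr10:86705638-86705656 on the minus strand: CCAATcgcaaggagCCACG
Hsp90b1, chr10:86705533-86705551 on the plus strand: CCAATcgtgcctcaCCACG
Calr, chr8:84847075-84847093 on the plus strand: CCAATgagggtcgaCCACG
Canx, chr11:50325800-50325818 on the minus strand: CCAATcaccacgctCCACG
Dnajc3, chr14:118937827-118937845 on the plus strand: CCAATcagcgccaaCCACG
Pdia6, chr12:17266491-17266509 on the plus strand: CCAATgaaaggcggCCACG

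The match of Hspa5 lay nearest to its start, 47 to 65 bases before it, and the farther match of Hsp90b1 lay 194 to 212 bases before. Of these 6 genes, Calr rose, Canx and Pdia6 fell, and Hspa5, Hsp90b1 and Dnajc3 were not called. The call of Calr, the only rise, held in 1 of the 6 leave-one-out fits. Atf6 has no entry among the promoter sequences used. The windows of Pdia4, Xbp1 and Herpud1 did not hold these letters, which says nothing of binding elsewhere. The XBP1 element TGACGTGG was found in 1 of 80 genes, Dnajc25 (difference 0.07), and in 0.916% of tested genes. Its shorter core CCACGTC was found for Dnajc25, Pdia5 and Pdia6, against 3.43% of tested genes.

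Beyond these genes, other steps of the ER pathway were read from lists. Of 30 further ER folding and oxidation enzymes, 10 rose (33.3%), 5 fell (16.7%) and 15 were not called (median 0.10). Over all genes 11.9% were called higher and 15.6% lower, so the share of falls was near the background and that of rises above it. The prolyl isomerase Fkbp11 rose from 3.93 ± 0.24 to 6.32 ± 0.16 (SD, n = 3 arrays each, limma adjusted p = 1.1e-05), a 5.25-fold difference. The sulphydryl oxidase Qsox1 rose by 1.63 (SE 0.09, adjusted p = 1.1e-05). Ero1a, which recharges the isomerases, rose by 1.54 (SE 0.21, adjusted p = 0.00094), whereas its paralogue Ero1b gave 0.17 with no call (adjusted p = 0.216). Fkbp7 rose by 1.03 (SE 0.12, adjusted p = 0.00043). The membrane-bound thioredoxin relatives Tmx4 and Tmx1 fell by 1.47 and 0.67 (adjusted p = 6.0e-05 and 0.0022) and the cyclophilin Ppic by 0.94 (adjusted p = 0.00080). Manf, a secreted ER stress protein, fell by 0.29 (adjusted p = 0.017), with adjusted p = 0.054 without M(CSF2) replicate 3.

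Genes that trim and read the sugar tag of glycoproteins were called higher in 4 of 12 cases (33.3%) and lower in 1 (8.3%), with a median of 0.01. Over all genes the shares were 11.9% higher and 15.6% lower. Edem2, which starts mannose trimming of misfolded chains, rose by 1.39 (SE 0.07, adjusted p = 8.0e-06), the glucosidase II subunit Prkcsh by 0.84 (adjusted p = 7.6e-05), and the lectins that pass such chains on, Os9 and Erlec1, by 0.78 and 0.46 (adjusted p = 0.00018 and 0.0076). Mlec, a lectin of early glycans, fell by 0.22 (adjusted p = 0.039) and was still called in 1 of the 6 leave-one-out fits (adjusted p = 0.107 without M(CSF1) replicate 2). In the degradation machinery that follows, 6 of 20 genes fell (30%), 1 rose (5%) and 13 were not called (median -0.16), against 15.6% lower and 11.9% higher over all genes. Sel1l, the scaffold of the membrane ligase, fell by 0.78 (adjusted p = 0.0010), Vcp, which pulls chains into the cytosol, by 0.58 (adjusted p = 0.0025), the conjugating enzyme Ube2j1 by 0.56 (adjusted p = 0.0034) and Derl3 by 0.51 (adjusted p = 0.0092). The membrane sorting protein Bcap31 rose by 0.64 (adjusted p = 0.00038).

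**Figure D5:**
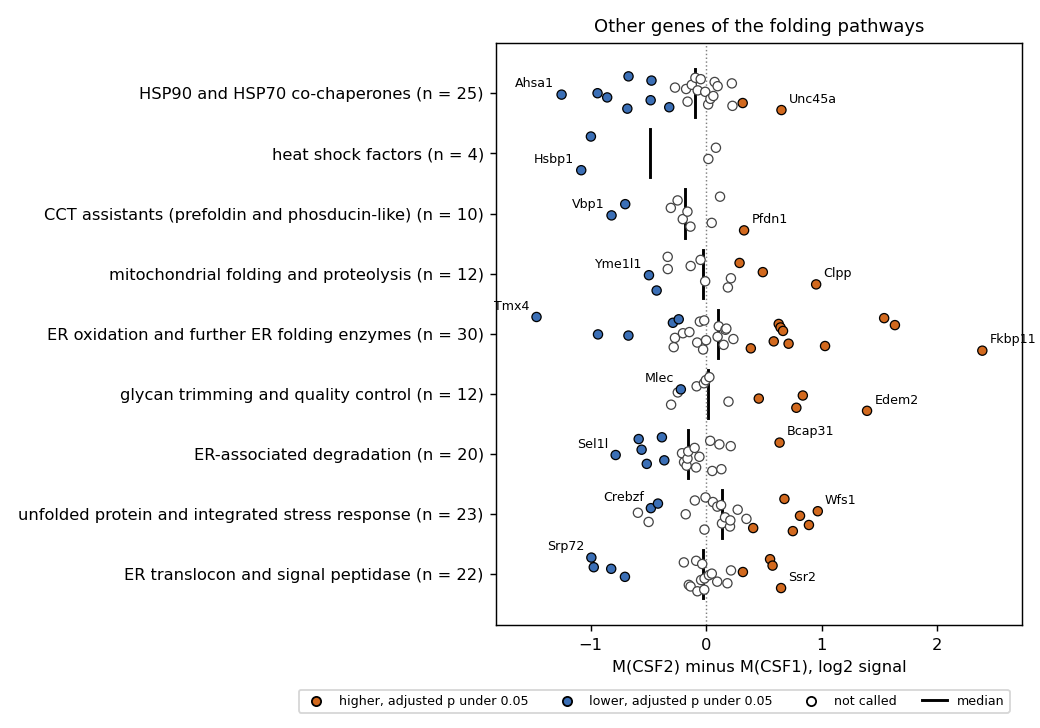
Difference between M(CSF2) and M(CSF1) in log2 signal (x axis) for the genes of 9 further lists of the folding pathways (y axis), with filled points for called genes and a black bar for the median. Co-chaperones lie mostly to the left, with Ahsa1 at -1.25, and ER oxidation and folding enzymes reach from -1.47 for Tmx4 to 2.39 for Fkbp11.

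Of 23 genes of the unfolded protein and integrated stress responses, 6 rose (26.1%), 2 fell (8.7%) and 15 were not called (median 0.14). Over all genes 11.9% were called higher and 15.6% lower. Wfs1, an ER membrane protein, rose by 0.97 (adjusted p = 0.00099), the stress factor Atf3 by 0.89 (adjusted p = 0.00017) and the ATF6 relative Creb3l1 by 0.75 (adjusted p = 0.0048). Trib3 rose by 0.81 (adjusted p = 0.043), called in 2 of the 6 leave-one-out fits (adjusted p = 0.134 without M(CSF2) replicate 3). Crebzf and Traf2 fell by 0.48 and 0.42, each called in 1 of those fits (adjusted p = 0.141 and 0.107 without M(CSF1) replicate 1). Among genes of the channel that brings chains into the ER, of the signal recognition particle and of the signal peptidase, 4 of 22 rose and 4 fell (median -0.03). These shares, 18.2% each way, compare with 11.9% higher and 15.6% lower over all genes. The channel genes Sec61a1 and Sec61b gave -0.04 and 0.05 with no call (adjusted p = 0.679 and 0.656). Subunits of single complexes parted: of the translocon-associated proteins Ssr2 rose by 0.65 and Ssr3 fell by 0.70 (adjusted p = 0.00029 and 0.00053), and of the signal peptidase Sec11c and Sec11a rose by 0.57 and 0.32 and Spcs3 fell by 0.97 (adjusted p = 0.00062, 0.0074 and 0.00054). Srp72 of the signal recognition particle and the translocating chain protein Tram1 fell by 0.99 and 0.82 (adjusted p = 0.00056 and 0.00039). Sec61a2 rose by 0.55 (adjusted p = 0.015), with adjusted p = 0.055 and 0.063 without M(CSF2) replicates 1 and 3.

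Small heat shock proteins, which hold unfolded chains without using ATP, were dim. Hspb11, counted here by its symbol, is a ciliary transport protein. The 8 genes had differences from 0.03 to 0.27 (median 0.14), and none was called. By limma, 2 of the 8, Hspb6 (0.27, adjusted p = 0.065) and Hspb7 (0.27, adjusted p = 0.099), had an unadjusted p under 0.05. Over all 19938 genes tested, 7235 had an unadjusted p under 0.05. Hspb2 gave 0.18 (adjusted p = 0.334). Hspb1 (HSP27) was at 3.79 and 3.89. The matrix gene Hspg2 and Hspbap1 gave 0.15 and -0.01 with no call.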

How the data were processed

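The deposited table holds, per the labels, 1 column per array, taken as log2 signal from the range of its values (1.48 to 13.27). MAS5 is named in the submitters' processing notes. Background correction, normalization and summarisation are not given in the sources used here. Array means were 4.63 and medians 3.91 to 4.00. Of 28941 probe sets, the platform annotation gives 21789 exactly 1 gene, 1621 several and 5531 none, and the probe sets with 1 gene were used. The probe set with the highest mean stood for a gene, which left 19938 genes with no filter on dim ones. Symbols of 21698 probe sets were found by Entrez identifier in a RefSeq table.

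Differences are M(CSF2) minus M(CSF1). The test was limma's moderated test (version 3.58.1, run under R 4.3.3), with p-values adjusted over all genes by Benjamini-Hochberg. The script was tested on simulated data. A fold of deposited signals can understate that of transcripts in dim genes, and the number of arrays limits the precision. The main test did not pair the samples by replicate number.

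Named were all HSP90, chaperonin, isomerase, lectin and sensor genes, elsewhere up to 6 called genes per role and direction with the 2 of highest mean signal, and up to 4 called genes per list and direction. Alternatives were quantile normalization, median centring, 2 signal filters, averaged probe sets, every other probe set by itself, an intensity trend, a replicate block and leaving out each array. Genes and lists were chosen with earlier results of these data known. Others named were chosen after their values were seen (the DNAJ partners of BiP, Dnaja3, Dnaja4, Dnajb1, Dnajb6, Hspa1a, Hspbp1, P4hb, Ero1b, Hspb1, Hspb7, Dnajc25, Hsf4, Hsf5, Sec61a1, Sec61b and S100a9). Protein sequences were not used here.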

Additional observations from a re-analysis of the deposited data

Results flagged for a closer look

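Of the probe sets that name a gene described above together with another gene, which the comparisons leave out, 8 of 10 differed between the groups over all probe sets by limma. The genes they measure cannot be told apart. Those naming the same genes gave near-equal values, so the 8 are not separate results. The share of all probe sets that differed was not computed, and of all genes tested 27.5% were called. The 4 probe sets naming Gm4247 and Dnajb6 gave 0.83, 0.85, 0.84 and 0.82 on the log2 scale, higher in M(CSF2) (adjusted p = 0.00076 to 0.0011). The probe set that names Dnajb6 alone gave 0.23 with no call, and lay close to background (3.48 in M(CSF1) and 3.70 in M(CSF2)). The pair naming Dnajb14 and Pin4 gave -0.58 and -0.59 (adjusted p = 0.0052 and 0.0064), against -0.15 with no call for Dnajb14 alone. The pair naming Snord14d, Snord14c and Hspa8 gave 0.28 and 0.28 (adjusted p = 0.013), higher in M(CSF2), while the 3 probe sets naming Hspa8 alone were lower. No sample of a group was tested as standing apart, since groups of 3 are too small for that rule.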

How the results depend on the processing

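Of the 38 calls among the chaperone genes, 19 of 26 lower and 6 of 12 higher ones held in all 6 fits with an array left out, where higher calls ranged from 7 to 10 and lower ones from 20 to 29. Among the other settings, single probe sets left aside, 25 of 26 and 9 of 12 held wherever the gene was tested. Taken by itself, the second probe set of Dnaja1 (adjusted p = 0.602 over all probe sets) or of Pdia4 (0.474, at background) did not give the call. Hspa9 was lost after quantile normalization, Calr and Dnajb12 after median centring, Dnajc14 after centring and with an intensity trend. Counts were 9 to 16 higher and 25 to 28 lower, and CCT kept 7 lower calls in every fit. The median difference over the chaperone genes was -0.19 over the 69 at or above the median gene and -0.14 over the 79 above the olfactory receptor level, where fewer genes are tested. With the replicate number as a block there were 9 higher and 26 lower calls, and 2136 and 2936 over all genes against 2373 and 3115 without it. Calr (adjusted p = 0.073), Dnajb12 (0.066), Dnajc14 (0.098) and Hspa9 (0.061) were lost. Same-numbered samples' deviations from their group means correlated at 0.004, -0.04 and -0.25, and those of samples with different numbers at -0.19 to 0.21. With 3 arrays per group, this cannot show whether same-numbered samples share a mouse or a day. For all genes no setting moved the median by over 0.1. Of 48 named pathway genes, 36 kept their call in all 6 fits with an array left out. Outside those fits Fkbp8, Lonp1 and Pfdn1 lost it after median centring, Manf, Traf2 and Mlec after quantile normalization, Lonp1, Pfdn1 and Mlec with an intensity trend, Mlec with either filter, and Fkbp8, Lonp1, Manf, Mlec and Pfdn1 with the block. No called chaperone gene and none of the 48 changed sign in a setting run, and genes not called were not compared between settings one by one. The median over all genes, 0.04, was -0.01 after median centring and -0.02 over genes at or above the median gene.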

Other observations

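Several usual targets of the unfolded protein response, chosen after their values were seen, were not called. Ddit3 (CHOP) gave 0.06 (limma adjusted p = 0.824), Edem1 0.03 (adjusted p = 0.835), Sdf2l1 -0.03 (adjusted p = 0.826), Hyou1 0.17 (adjusted p = 0.168), Creld2 0.24 (adjusted p = 0.071) and Chac1 -0.50 (adjusted p = 0.139). Atf6b, the relative of Atf6, gave 0.21 (adjusted p = 0.134), against the fall of 1.70 for Atf6. Other genes of the response were called, as given above: Herpud1 fell, and Xbp1, Pdia4, Atf3 and Trib3 rose. Of the list of 23 stress response genes, 6 rose and 2 fell. Among the 6 were Atf4 (0.41, adjusted p = 0.033) and Bak1 (0.68, adjusted p = 0.00032), also named after their values were seen.

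The arrays of a group did not rank evenly over these genes. M(CSF2) replicate 2 was the lowest of its group for 46 of the 79 chaperone genes above the olfactory receptor level (58.2%), against 38.2% of all genes above it, and M(CSF2) replicate 3 the highest for 48 (60.8%), against 40.2%. In M(CSF1), replicate 3 was the lowest for 45 (57.0%), against 49.0%. Without M(CSF2) replicate 2, 10 chaperone genes were called higher and 23 lower.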
